A study of Mus musculus with 2 samples.

Results

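Mir143 and Mir145a, the pair of microRNA (miRNA) genes known for their high levels in smooth muscle, were described in embryonic mouse lung. They were picked by name: of 1973 miRNA genes counted in each library, 2 carry the Ensembl identifiers that the GENCODE annotation names Mir143 (ENSMUSG00000065445) and Mir145a (ENSMUSG00000065592). Small RNA of under 30 nt was sequenced from lung tissue of B6NCrl mouse embryos at day 14.5 (E14.5). The 2 libraries, biological replicates 2 and 1, form 1 group for which the labels name no treatment or mutation, and conditions cannot be compared. Each library is labelled as a single lung of 1 pup, yet also as of mixed sex, and the replicates were collected on different days, so that day and replicate cannot be told apart. Levels are gene-strand counts, that is reads in the sense direction of a miRNA gene, scaled to a library total of 1000000 (CPM).

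MiRNAs are cut from hairpin-shaped precursors, and the mature strand guides the silencing complex to messenger RNAs that pair with its seed, the bases near its 5′ end. miR-143 and miR-145 come from neighbouring hairpins, are understood to be made from 1 primary transcript under the control of serum response factor and myocardin, and are known to favour the contractile state of smooth muscle, among others by restraining Klf4 and Elk1. In the embryonic lung, smooth muscle forms around the branching airways and the vessels. Counts of whole tissue do not show which cells held the reads, and fewer cells of a type and less RNA per cell cannot be told apart.

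In mm10 both genes lie on the minus strand of chromosome 18. Mir143 spans 61649196 to 61649258 and Mir145a spans 61647825 to 61647894. Transcription therefore reaches Mir143 first, and 1301 nt separate the 2 hairpins. Neither hairpin overlaps another annotated gene. Carmn, a long noncoding RNA of smooth muscle and cardiac lineages on the same strand, ends 366 nt upstream of Mir143. Bvht, the long noncoding RNA called Braveheart for its part in cardiac commitment of mouse cells, lies on the opposite strand and ends 352 nt from Mir145a.

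**Figure D1:**
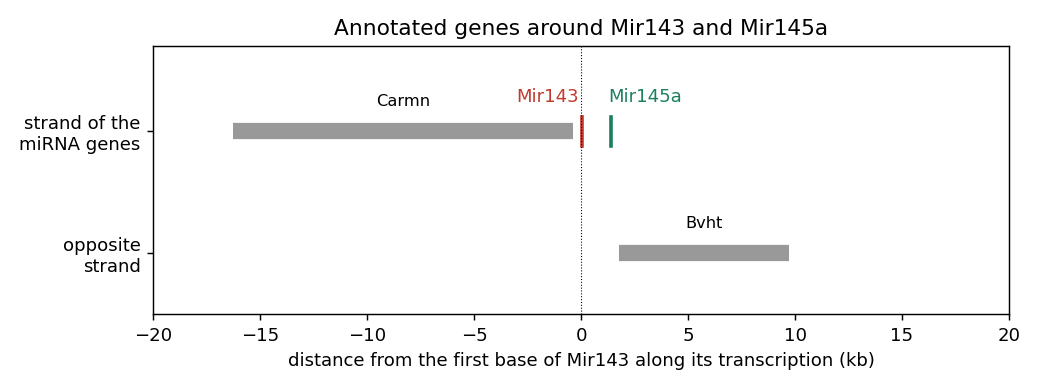
Genes annotated within 20 kb of the first base of Mir143; the horizontal axis is the distance from that base in kb, positive downstream, and the rows are the strands. Mir145a lies 1301 nt downstream of the Mir143 hairpin, between Carmn on the same strand and Bvht on the other.

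The hairpins are short. That of Mir143 has 63 nt and that of Mir145a 70 nt, against a median of 90 nt over 1894 annotated miRNA hairpins. Their GC contents are 55.6% for Mir143 and 48.6% for Mir145a, on either side of the median of 51%. The computed folding energy of Mir143 is -36.9 kcal/mol, which per nucleotide places it at percentile 4.38 of all hairpins, counted from the most stable. Mir145a folds with -30.3 kcal/mol, at percentile 29.8. No stretch of 20 nt of either hairpin occurs in a transcript of any other annotated gene (0 genes for each). This bears on the counts because reads that mapped to several places, 33.1% of reads in replicate 2 and 32.9% in replicate 1, were assigned to no gene.

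Depth did not limit either gene. Gene-strand counts totalled 2332032 in replicate 2, out of 4544184 reads, and 5128214 in replicate 1, out of 10200412 reads. Of 5 sets of cell type markers, the 5 epithelial miRNAs of the miR-200 family were all detected in both libraries, at 3.37% of counts in replicate 2 and 3.33% in replicate 1, as were the endothelial Mir126a and the erythroid Mir451a and Mir144. Where libraries are the only samples, a p-value compares the reads of these libraries and not conditions. Intervals and detection limits cover counting error only.

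Mir143 was at or near the top of the whole profile, and Mir145a well below it in the upper part. Mir143 had 141061 counts in replicate 2 and 401648 in replicate 1. Its level was thus 60488 CPM in replicate 2 (95% exact binomial interval 60183 to 60795) and 78321 CPM in replicate 1 (78089 to 78554), a mean of 69405 ± 12609.7 CPM (SD, n = 2). It ranked 2nd in replicate 2 and 1st in replicate 1. Mir145a had 3579 counts in replicate 2 and 7538 in replicate 1, or 1535 CPM (1485 to 1586) in replicate 2 and 1470 CPM (1437 to 1503) in replicate 1. Its mean was 1502 ± 45.8 CPM and its rank 84th in replicate 2 and 87th in replicate 1. The libraries lay close together for Mir145a, while for Mir143 their intervals were far apart. A minimum of 10 counts in each library was met by 320 genes. Mir143 stood 288-fold above their median level in replicate 2 and 411-fold in replicate 1. Mir145a stood 7.30-fold above it in replicate 2, at percentile 74.1 of these genes, and 7.72-fold in replicate 1, at percentile 73.1.

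**Figure D2:**
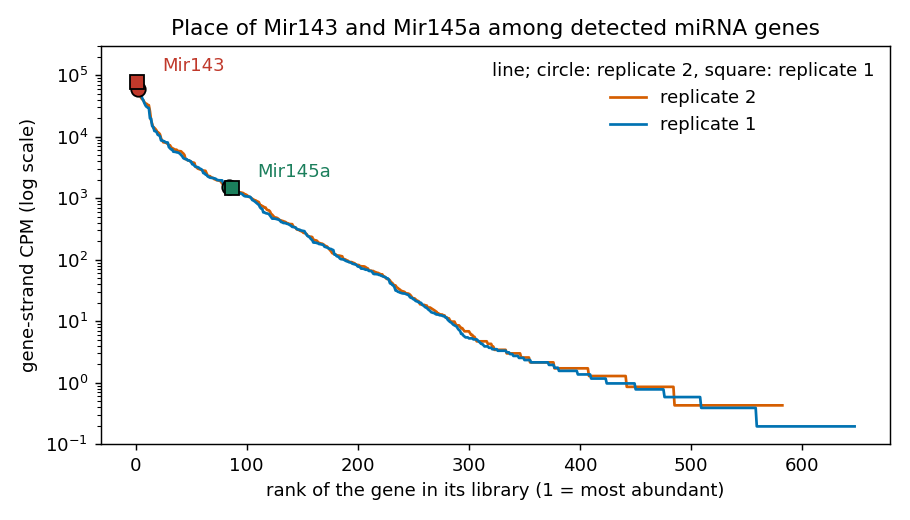
CPM on a log scale against rank in the library for all detected genes, as 1 line per library; the marked points are Mir143 and Mir145a, with circles for replicate 2 and squares for replicate 1. Mir143 sits at the top end of both lines and Mir145a at rank 84 in replicate 2 and 87 in replicate 1.

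The strand of the reads was unequivocal for both genes. Of 542709 reads at Mir143 and 11117 at Mir145a in the 2 libraries together, 0 lay on the opposite strand. In replicate 2, a count of 0 allows up to 0.00213% as many opposite-strand reads as gene-strand reads at Mir143 and 0.0838% at Mir145a. In replicate 1 the limits are 0.000747% at Mir143 and 0.0398% at Mir145a. This was common among well-covered genes: of the 85 genes with at least as many counts as Mir145a, 70 had no opposite-strand read. Mir126a, almost as abundant as Mir143, had 13 such reads in replicate 2 and 34 in replicate 1.

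Although the hairpins are neighbours, their mature products differed widely in reads. Mir143 exceeded Mir145a 39.4-fold in replicate 2 (95% exact interval 38.1 to 40.8) and 53.3-fold in replicate 1 (52.1 to 54.5). The log2 ratio was 5.30 in replicate 2 and 5.74 in replicate 1, a mean of 5.52 ± 0.31 (SD, n = 2). Mir145a thus supplied 2.47% of the reads of the cluster in replicate 2 (2.39 to 2.56) and 1.84% in replicate 1 (1.80 to 1.88). Between the 2 genes in rank lay 81 others in replicate 2, with 80.8% of all counts, and 85 in replicate 1, with 86.6%. A read covers a whole mature miRNA, so counts were not divided by length. How readily each of the 2 sequences was captured was not measured, and the counts add up both arms of a hairpin.

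A difference of this size was not particular to the pair. Among 91 pairs of consecutive miRNA genes on 1 strand, at most 10 kb apart and each with at least 10 counts in both libraries, the median difference was 7.41-fold (absolute log2 ratio 2.89, mean of both libraries). The 91 pairs hold 136 genes, and consecutive pairs of a longer cluster share a gene, so that they are not independent. Mir143 over Mir145a was the 18th largest, at 45.8-fold as a geometric mean, and 21 pairs differed by at least 32-fold. The 3 largest were Mir20a over Mir19b-1 (388-fold, in the Mir17 cluster), Mir99a over Mirlet7c-1 (301-fold) and Mir30e over Mir30c-1 (249-fold). At least 1 gene in each of these 3 shares 20 nt with a hairpin elsewhere and can lose multimapping reads. In the 59 pairs where neither gene does so, Mir143 over Mir145a was the 8th largest and the median was 5.75-fold. The gene transcribed first was the higher one, as here, in 50 of the 91 pairs and in 34 of these 59.

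**Figure D3:**
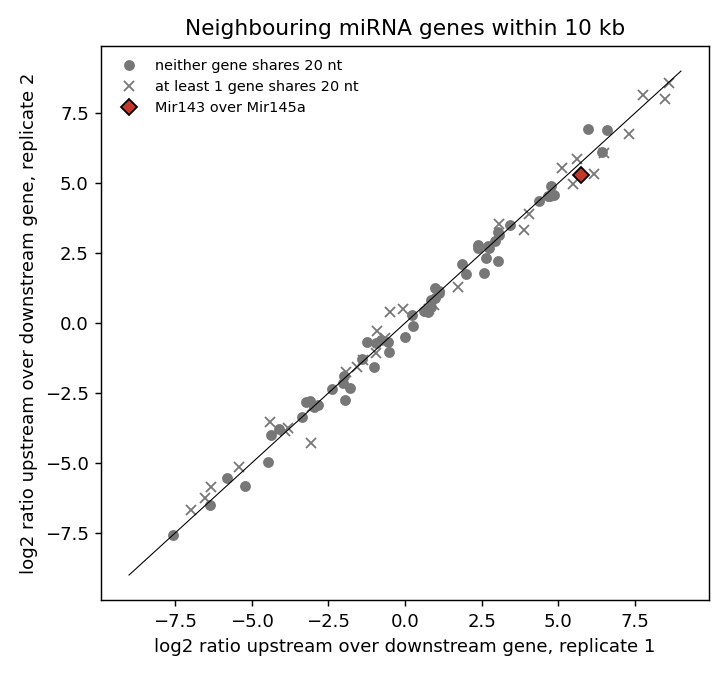
Log2 ratio of the upstream to the downstream gene in 91 pairs of neighbouring miRNA genes, in replicate 1 on the horizontal and in replicate 2 on the vertical axis; the line marks equal ratios. Mir143 over Mir145a (diamond; 5.30 in replicate 2, 5.74 in replicate 1) lies among the pairs with large ratios, slightly under the line.

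The ratio itself was not constant between the libraries. It was lower in replicate 2 than in replicate 1 by 0.43 on the log2 scale (difference -0.43; two-sided Fisher's exact test, adjusted p = 5.04e-46 over 91 pairs). Of these pairs 51 (56%) passed the same test, so that passing it did not set Mir143 and Mir145a apart. The difference was the 25th largest in size, against a median of 0.28. With the common dispersion between the libraries (0.0328, estimated by edgeR) added to counting error, the pair no longer passed (likelihood ratio test in edgeR, adjusted p = 0.989). That dispersion was estimated from the same 2 libraries, so failing to pass says little about this pair by itself. With counts taken without regard to strand and no dispersion, Fisher's exact test gave an adjusted p of 5.09e-46.

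Between the replicates Mir143 moved and Mir145a hardly did. On CPM scaled by the trimmed mean of M values (TMM), Mir143 had a log2 ratio of -0.46 of replicate 2 over replicate 1, and its adjusted p in the exact two-sided binomial test was 0 at the precision of the software. Mir145a had a log2 ratio of -0.03 and did not pass (exact binomial test, adjusted p = 0.525). That made 1 of 2 members called, beside 169 of 404 genes tested (41.8%), of which 97 (24%) were lower in replicate 2. Only 17 of the 404 genes lay closer to 0 than Mir145a, and 80 lay farther from it than Mir143. The sign for Mir145a hung on the scaling: it was 0.062 with library totals (exact binomial test, adjusted p = 0.0755), and with DESeq2 size factors it was -0.075 and passed (exact binomial test, adjusted p = 0.0278). The DESeq2 size factors (0.707 in replicate 2 and 1.414 in replicate 1) were estimated without a count minimum, so that genes with few reads weighed in. Mir143 was lower in replicate 2 under all 3 scalings, from -0.51 to -0.37. The split of calls over all genes also moved. TMM gave 72 genes higher and 97 lower in replicate 2, and library totals gave 112 higher and 65 lower. With the common dispersion added to counting error, TMM-scaled Mir143 did not pass (exact beta-binomial test, p = 0.260, adjusted p = 1). Nor did TMM-scaled Mir145a in the same test (adjusted p = 1, the highest of its alternatives). As the dispersion was estimated from the differences under test, failing to pass says little about either gene by itself.

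**Figure D4:**
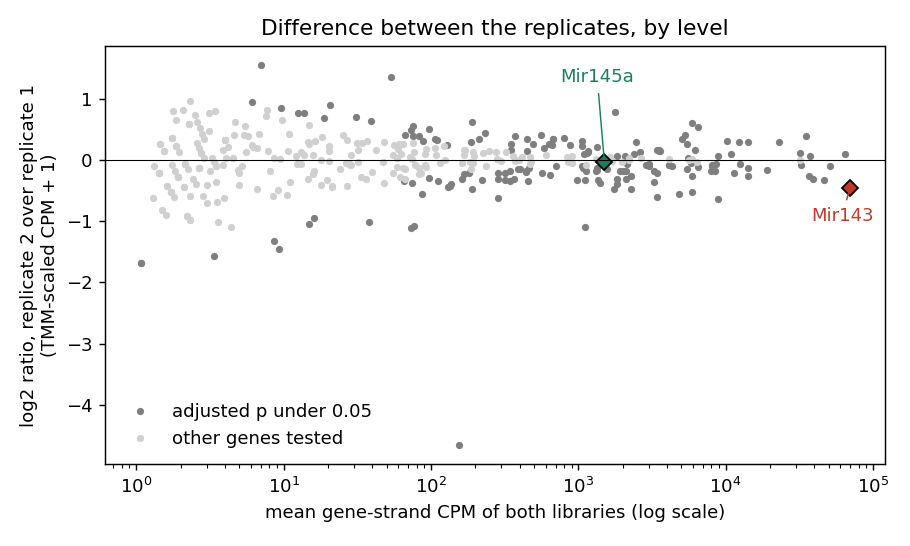
Log2 ratio of replicate 2 to replicate 1 against mean CPM (log scale) for the 404 genes tested; dark points passed an adjusted p of 0.05 in the exact binomial test. Mir145a lies at -0.03 and Mir143, the most abundant gene, at -0.46.

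Among abundant genes the shift of Mir143 was the second farthest down. Of 22 genes averaging 10000 CPM or more, 21 passed the test, 9 higher and 12 lower in replicate 2, and their log2 ratios ran from -0.47 to 0.39. Only Mir126a, at -0.47, lay below Mir143. Of 78 genes between 500 and 5000 CPM, the range that holds Mir145a, 61 passed, the median absolute log2 ratio was 0.16, and 5 lay closer to 0 than Mir145a. Levels of markers of other cell types differed between the libraries too. The cardiac miRNAs Mir208a, Mir208b and Mir499, which lie in myosin heavy chain genes, were all detected in both libraries and summed to 42.0 CPM in replicate 2 and 361 CPM in replicate 1. Erythroid miRNAs summed to 391.5 CPM in replicate 2 and 497 CPM in replicate 1, while the epithelial ones summed to 33730 CPM in replicate 2 and 33294 CPM in replicate 1. Their part in the difference of Mir143 was not tested.

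The genes most like each member were found as the 3 with the smallest distance in the pair of log2(CPM + 1) values, that is over 2 libraries. For Mir143 these were Mir126a, the miRNA of endothelium (distance 0.0656), Mir335, hosted by the imprinted gene Mest (0.416), and Mirlet7g of the let-7 family (0.658). Mir143 exceeded Mir126a 1.04-fold in replicate 2 and 1.03-fold in replicate 1, although both genes were lower in replicate 2. Against Mir335 the order changed, with 0.880-fold in replicate 2 and 1.29-fold in replicate 1. Against Mirlet7g it was kept, with 1.19-fold in replicate 2 and 1.53-fold in replicate 1. Mir143, Mir126a and Mir335, at means of 69405, 67235 and 64639 CPM, differed by less than the SD of Mir143.

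For Mir145a the nearest genes were Mir96, from a cluster known for its part in sensory cells (distance 0.0345), Mir154 of the imprinted Dlk1-Dio3 region (0.106) and the epithelial Mir141 (0.189). Mir96 had 1562 CPM in replicate 2 and 1447 in replicate 1, on both sides of Mir145a. Mir154 had 1525 CPM in replicate 2 and 1581 in replicate 1, and Mir141 had 1725 in replicate 2 and 1561 in replicate 1. The means of Mir145a (1502 ± 45.8 CPM) and Mir96 (1504 ± 81.8) differed by less than either SD (n = 2). Those of Mir145a and Mir154 (1553 ± 40.02) differed by more than either SD, and the ratio of Mir145a to Mir154 was 1.01 in replicate 2 and 0.929 in replicate 1.

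**Figure D5:**
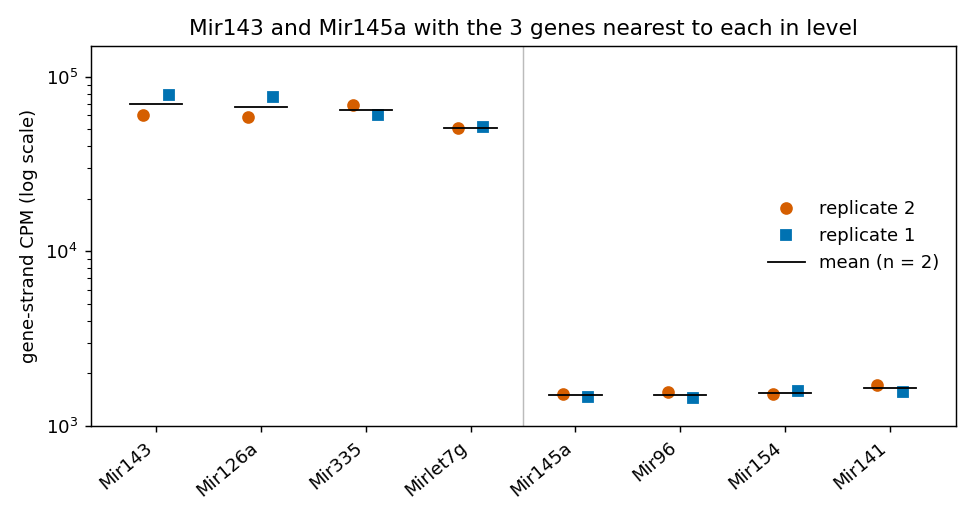
CPM on a log scale of Mir143 and Mir145a, each followed by the 3 genes nearest to it in level; circles are replicate 2, squares replicate 1 and bars the mean of both. Mir143 and Mir126a are both lower in replicate 2, at 60488 and 58438 CPM against 78321 and 76033 CPM in replicate 1.

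Mature sequences from RefSeq (GRCm38.p6) are shown for the gene nearest to each member and for Mir335, whose order against Mir143 changed between the libraries. Mir126a lies on chromosome 2, and Mir335 and Mir96 on chromosome 6. For Mir126a only miR-126a-3p is shown, whereas both arms are shown for Mir335 and Mir96. Capitals mark the seed, bases 2 to 8 from the 5′ end, and it differs between all 5 sequences.
miR-126a-3p: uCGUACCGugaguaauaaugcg
miR-335-5p: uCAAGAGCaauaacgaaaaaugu
miR-335-3p: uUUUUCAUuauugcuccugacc
miR-96-5p: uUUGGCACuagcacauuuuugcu
miR-96-3p: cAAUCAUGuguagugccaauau
Each seed of miR-126a-3p and of both miR-335 arms was found in no other gene among 1738 mature sequences (0 genes), and that of each miR-96 arm in 1 other gene. The counts do not tell which arm was read.

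Mir145b, a separate gene of like name on the same chromosome, had no reads. It was at 0 counts on either strand in both libraries, which allows up to 1.29 CPM in replicate 2 and 0.585 CPM in replicate 1. Mir145a was at least 1193-fold higher in replicate 2 and 2513-fold higher in replicate 1, with 3 counts per library as the floor. The Mir145b hairpin shares no 20 nt with that of Mir145a, but shorter matches, such as in the seed, were not searched. Of 50 miRNA genes counted on chromosome 18, 5 had at least 10 counts in both libraries, and Mir143 and Mir145a together held 98.8% of the chromosome's counts in replicate 2 and 99.1% in replicate 1. The other 3 were Mir187 (711 ± 4.94 CPM), the hepatocyte miRNA Mir122 (30.9 ± 12.04) and Mir1948 (9.73 ± 3.83).

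Other miRNAs described in smooth muscle together summed to more than Mir143 in both libraries, though barely in replicate 1. Mir143 alone held 6.05% of counts in replicate 2 and 7.83% in replicate 1. Of 12 other such genes 11 were used here, with 8.81% of counts in replicate 2 and 7.91% in replicate 1. Most of their share came from Mir10a of the HoxB region (37322 ± 2937 CPM), Mir23b (32119 ± 3179) and Mir21a, a miRNA raised in injured vessels (12443 ± 184), which are not limited to smooth muscle. These 3 lay above Mir145a and the other 8 below it. Mir221 and Mir222, which promote proliferation of vascular smooth muscle by restraining p27, stood at 495 ± 85.6 and 321 ± 34.8 CPM. Mir31 stood at 398 ± 18.05 CPM, Mir146 at 171 ± 21.01, Mir24-2 at 163 ± 17.8 and Mir204 at 85.9 ± 5.07. Mir26a-2 (55.6 ± 3.49 CPM) and Mir26a-1 (21.2 ± 3.92) share sequence with each other and can lose reads, as can Mir23b, Mir146 and Mir24-2. Between the replicates 3 of the 11 were higher and 2 lower in replicate 2, and 6 did not pass (exact binomial test), a share called near the 41.8% over all genes tested. Their median log2 ratio was 0.0031, against -0.03 over all genes tested. With library totals 6 were higher and 1 lower, beside 112 higher and 65 lower of all 404 genes.

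Compared with miRNAs of other lineages, Mir143 was high and Mir145a in between. The endothelial Mir126a nearly equalled Mir143, which exceeded it only 1.04-fold in replicate 2 and 1.03-fold in replicate 1. In the mesenchymal list, Mir214 stood at 8920 ± 692 CPM, above Mir145a, and Mir199b at 631 ± 109 and Mir199a-2 at 107 ± 22.8, below it. Mir143 exceeded the sum of this list 5.90-fold in replicate 2 and 8.63-fold in replicate 1, though 3 of its 4 members share sequence with copies elsewhere. It exceeded the sum of the miR-200 family, which restrains the mesenchymal regulators Zeb1 and Zeb2, 1.79-fold in replicate 2 and 2.35-fold in replicate 1. In that family Mir429 (14134 ± 1153 CPM), Mir200c (10881 ± 969), Mir200b (5942 ± 308) and Mir141 (1643 ± 116) had means above that of Mir145a, and Mir200a (912 ± 68.2) below. The miRNAs of striated muscle had few assigned reads. Of the 9 counted, Mir1b, Mir133b, Mir1a-1, Mir133a-1 and Mir133a-2 share 20 nt with a hairpin elsewhere. They can lose multimapping reads, so their counts do not show how scarce they were. Mir145a alone exceeded the sum of the 9 as counted 26.7-fold in replicate 2 and 3.97-fold in replicate 1. Most of that sum in replicate 1 was the cardiac Mir208a, with 11.6 CPM in replicate 2 and 299 CPM in replicate 1. Mir208b followed at 37.8 ± 17.1 CPM, and the other 7 had means under 10 CPM. In the exact binomial test 4 of 4 mesenchymal miRNAs were higher in replicate 2 (3 with DESeq2 size factors), beside 72 higher and 97 lower of all 404 genes (61 and 107 with DESeq2 size factors). Of the miR-200 family 1 was higher, 1 lower and 3 did not pass, whereas library totals made 4 higher and 1 lower, beside 112 higher and 65 lower of all 404 genes. Of 5 striated muscle miRNAs tested 1 was higher, 3 were lower and 1 did not pass. With the common dispersion added, Mir208a, lower in replicate 2, was the 1 gene of these lists that passed (exact beta-binomial test).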

How the data were processed

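The 2 small RNA libraries of E14.5 mouse lung were used. The authors deposited raw counts per miRNA gene, in 3 columns that on their values hold reads without regard to strand, on the strand of the gene and on the opposite strand. The deposited readme names mm10 and GENCODE M4 for these counts. For aligner, counter and trimming the sources used here give nothing. Entries that name no gene (replicate 2: unmapped 11.7%, multimapping 33.1%, no feature 3.93% of reads; replicate 1: 12.7%, 32.9% and 4.10%) stayed out of library totals. No column was set aside for lack of a sample (0 columns).

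Identifiers were matched without their version to GENCODE M21 (1894 of 1973; both members matched, with version numbers that differ from the deposited ones). CPM used gene-strand counts. All genes with at least 10 counts over both libraries were tested with an exact binomial test given TMM-scaled totals, and pairs with Fisher's exact test, both adjusted after Benjamini and Hochberg and called below 0.05. Log2 ratios of replicates used CPM + 1. P-values of the exact binomial and Fisher tests set the difference in reads between these 2 libraries against counting error only. That difference may be technical. Genes named are the members, the 3 nearest to each, listed miRNAs, those of the same chromosome with at least 10 counts in both libraries, Mir145b and the 3 pairs with the largest ratios. Mir451a, Mir144 and Mir499 come from the cell type markers. The members' seeds were not searched. Members and lists were chosen with earlier results of these data known. Tests used scipy 1.17.1 in Python 3.11.15, scaling used edgeR 4.0.16 and DESeq2 1.42.0 in R 4.3.3, and folding used ViennaRNA 2.7.2. Alternatives were other denominators, scalings, strands, filters, pseudocounts, pair distances, the dispersion, and each replicate left out.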

Additional observations from a re-analysis of the deposited data

How the results depend on the processing

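Mir143 lay above Mir145a in both libraries and under every alternative tried for levels and ratio. Those alternatives treat both genes alike and could not change that order. Of 46 alternative values 36 kept their direction, call and size, but this count is no measure of robustness. Leaving out a replicate returns the value of the other. Neither gene had opposite-strand reads that could change the ratio, and the pseudocount does not enter the p-values. With multimapping and other mapped reads in the denominator, Mir143 came to 40118 CPM and Mir145a to 869 CPM, by construction. Without the most abundant other gene in the denominator, Mir143 came to 74861 CPM and Mir145a to 1621 CPM. Leaving out a replicate gave 60488 to 78321 CPM for Mir143, 1470 to 1535 CPM for Mir145a and 5.30 to 5.74 for the log2 ratio. The ratio between replicates for Mir145a was 0.062 with library totals and -0.075 with DESeq2 size factors, which passed. Relative to totals, the log2 scale moved by -0.09 under TMM and by -0.14 under DESeq2. With the common dispersion added, the differences between replicates of Mir143 (-0.46) and of the pair's ratio (-0.43) no longer passed, 1 gene of 404 was called (15 at an unadjusted p under 0.05), and 0 of 91 pairs passed in edgeR (1 at an unadjusted p under 0.05; 51 by Fisher's exact test). That dispersion was estimated from the same 2 libraries, so failing to pass says little about a single gene or pair. In 59 pairs without shared sequence 32 passed Fisher's exact test, out of fewer pairs tested. The replicate ratios need both libraries, so leaving one out gives no value. Depth limited neither gene. No paired analysis was possible because there is 1 group.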
